A study of Homo sapiens with 7 samples.

Results

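Carbonic anhydrases are described here in HEK-293, an established human embryonic kidney cell line grown in acidified medium or with a kinase inhibitor. The 9 genes CA2, CA3, CA5B, CA8, CA9, CA11, CA12, CA13 and CA14 were taken by name from the 19978 genes of the deposited table through their Ensembl identifiers. The table also holds the other 6 genes of the human alpha family, which are CA1, CA4, CA5A, CA6, CA7 and CA10. All cells were kept for 48 h in DMEM with the vehicle DMSO before poly(A) RNA was sequenced. The control group (2 samples) was at pH 7.4, the acidosis group (3 samples) was in medium acidified to pH 6.6, and the third group (2 samples) had 10 μM of the SR protein kinase inhibitor SRPIN340 at pH 7.4. A protocol text in the labels spells the number of that compound differently. The samples are repeats of 1 cell line, without genetic modification in the labels, so they describe this line and not kidney tissue.

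Carbonic anhydrases interconvert carbon dioxide with bicarbonate and a proton, and so tie the handling of acid to that of dissolved carbon dioxide. CA9, CA12 and CA14 are anchored in the plasma membrane with the catalytic domain outside the cell, where CA9 and CA12 are known as enzymes that hypoxic tumour cells use to manage acid. CA2, CA13 and CA3 are cytosolic (CA2 is among the fastest enzymes known, and CA3 is a slow form of muscle and fat), CA5B works in mitochondria, and CA8 and CA11 have lost residues needed for catalysis and are called carbonic anhydrase-related proteins.

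In acidosis the members moved in different directions, and none reached a log2 fold change of 1 in size. The cytosolic CA13 rose 1.92-fold, but did not pass the test with libraries scaled by total count (0.37 on the log2 scale). The mitochondrial CA5B rose 1.48-fold, a change that was absent with libraries scaled by total count (-0.01 on the log2 scale). The extracellular CA12 fell to 0.596 of its control level. CA2, the most abundant member per kilobase of transcript, was at 0.972 of control. With total count scaling CA2 passed as lower (-0.62 on the log2 scale). CA9, the member best known from acidic tumours, was at or near 0 in every library. With SRPIN340 no member passed the test. These fold values are relative to the typical gene, because libraries were scaled by TMM (trimmed mean of M-values, which assumes that most genes keep their share). In bulk samples fewer cells of a kind and less RNA per cell cannot be told apart.

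**Figure D1:**
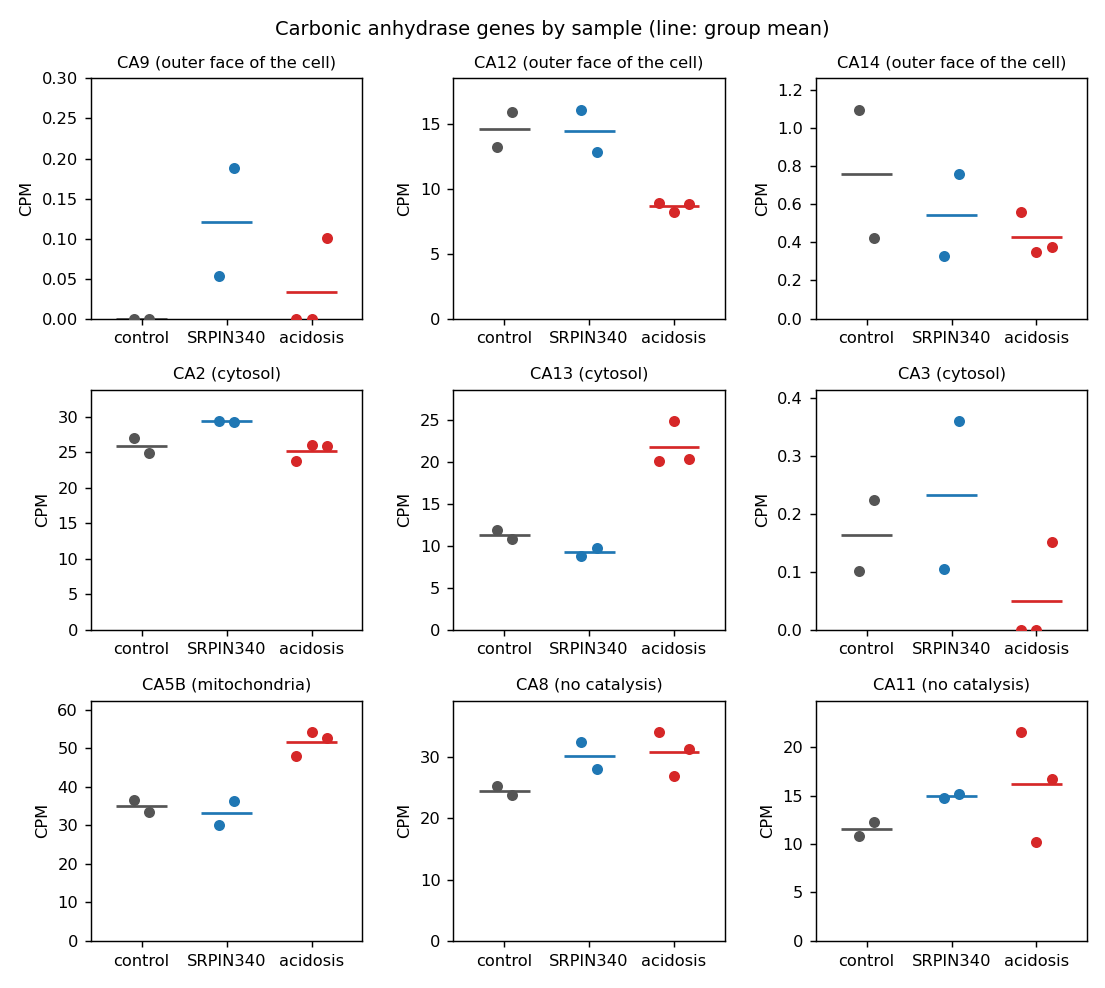
Level of each of the 9 carbonic anhydrase genes in counts scaled to library size (CPM, vertical axes from 0, each panel with its own scale) in the control, SRPIN340 and acidosis samples. Points are samples and lines are group means. CA13 and CA5B are higher and CA12 lower in each of the 3 acidosis samples than in any other sample, while the CA9 and CA3 panels span less than 0.5 CPM.

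Library totals lay between 13615816 and 24110460 estimated counts, with the shallowest libraries in acidosis. Low genes are therefore measured less precisely there. All 8 markers listed for HEK-293 (NEFL, NEFM, INA, VIM, KRT8, KRT18, PAX2 and LHX1) were above 1 CPM in every library. Among the 4 markers of mature kidney tubule, 3 were under 1 CPM throughout. The markers of HEK-293 summed to between 1435 and 1496 CPM in control and SRPIN340 and to between 3517 and 3533 CPM in acidosis, and the 3 fibroblast markers (COL1A1 and COL3A1 above 1 CPM) to between 33.9 and 42.5 CPM and between 59.4 and 67.5 CPM. All 4 immune markers were under 1 CPM in every library. The 4 erythroid markers, from cells rich in CA1 and CA2, summed to between 0.248 and 0.489 CPM in control and SRPIN340 and to between 1.90 and 2.44 CPM in acidosis. Their part in the results was not tested.

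The expression filter (edgeR's filterByExpr) left 14863 genes, among them 7 of the 9 members. CA9 and CA3 did not pass it. A gene passed the test at a Benjamini-Hochberg adjusted p under 0.05 over all genes, and was called when its absolute log2 fold change was also over 1. In acidosis against control, 0 of the 7 tested members were called, while 14.4% of all tested genes were called higher and 19.1% lower. DESeq2 also called 0. In edgeR 4 members had an unadjusted p under 0.05, as did 10384 of all 14863 tested genes. Without the fold limit, 3 members passed as higher (CA13, CA5B and CA8) and 1 as lower (CA12), where 32.5% of all genes passed as higher and 34.2% as lower. The median log2 fold change of the 7 members was 0.33 and that of all genes -0.05. Under total count scaling, without TMM factors, the medians were -0.24 and -0.63, and 0 members passed as higher and 2 as lower. With the fold limit 0 members were called higher and 1 lower. The calls over all genes, with that limit, went from 2145 higher and 2840 lower to 815 higher and 5202 lower.

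Of the enzymes on the outer face of the cell, CA9 was undetected, CA12 fell and CA14 was too scarce to read. CA9 (ENSG00000107159.14, plus strand of chromosome 9 of GRCh38, 35673928 to 35681159, 11 exons in its canonical transcript) had 0 counts in both control libraries. It had 1.44 and 4.94 counts with SRPIN340 and 0, 0 and 1.17 counts in acidosis. A count of 0 allows up to 3 counts, or 0.105 to 0.108 CPM in the control libraries and 0.178 to 0.275 CPM in the acidosis libraries, counting error only. The sole value above 3 counts was SRPIN340 repeat 2, at 0.188 CPM. CA9 transcript was thus not detectable at this depth in control or acidosis, and no fold is given.

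CA12 (ENSG00000074410.14, minus strand of chromosome 15, 63321378 to 63381846, 11 exons) was expressed and fell. Its level was 13.2 and 16.0 CPM in the control libraries, 16.1 and 12.9 CPM with SRPIN340, and 8.95, 8.23 and 8.85 CPM in acidosis. The acidosis samples lay close together and below each of the other 4 samples. Its mean of 8.68 ± 0.393 CPM (SD, n = 3) compares with 14.6 ± 1.93 CPM (SD, n = 2) for control. The quasi-likelihood fit of edgeR put the log2 fold change at -0.75 (SE 0.164, Benjamini-Hochberg adjusted p = 0.00262), with a 95% interval from -1.12 to -0.38. It passed the test under every alternative tried, and under total count scaling it was called (log2 fold change -1.32).

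The upstream sequences of CA9 and CA12 are shown because both genes are known as targets of hypoxia-inducible factors, which bind the letters ACGTG or GCGTG on either strand. The lines give the 250 bases before the RefSeq start of each gene (GRCh38.p14, chr9:35673678-35673927 on the plus strand and chr15:63381847-63382096 on the minus strand), 5′ to 3′. Capitals mark matches to these letters or to their reverse complements, CACGT and CACGC. The ACGTG letters are also part of the E-box CACGTG, which other factors bind.
CA9: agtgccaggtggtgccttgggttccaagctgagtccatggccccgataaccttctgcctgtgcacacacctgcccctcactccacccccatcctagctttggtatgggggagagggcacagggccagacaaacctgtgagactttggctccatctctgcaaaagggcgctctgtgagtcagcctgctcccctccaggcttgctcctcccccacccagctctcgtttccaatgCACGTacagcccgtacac
CA12: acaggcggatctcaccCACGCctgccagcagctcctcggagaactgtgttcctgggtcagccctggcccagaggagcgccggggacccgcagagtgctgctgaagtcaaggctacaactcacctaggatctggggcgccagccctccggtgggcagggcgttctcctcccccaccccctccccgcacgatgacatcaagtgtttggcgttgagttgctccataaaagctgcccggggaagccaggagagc

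CA9 had 1 match, which begins 18 bases before the start, and CA12 had 1 match, which begins 234 bases before it. Of the 35116 RefSeq promoters of this length, 43.2% hold at least 1 match. Promoters of 4 members were matched by symbol. CA5B held 6 matches in the same window and CA14 held 0. A match describes the letters and does not by itself show binding.

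CA14 (ENSG00000118298.12, chromosome 1, 150257251 to 150265078), a membrane enzyme of brain and other tissues, was scarce. The control libraries held 1.10 and 0.421 CPM and those with SRPIN340 0.326 and 0.757 CPM. In acidosis it was at 0.561, 0.349 and 0.378 CPM. The groups overlapped, and the log2 fold change of -0.82 in acidosis had a 95% interval from -2.25 to 0.62 (adjusted p = 0.284 from the same edgeR test). With 3.81 to 9.44 counts in the acidosis libraries, a change of up to several fold was not detectable at this depth, and the gene passed the filter through its counts at pH 7.4. CA14 overlaps a long noncoding RNA gene on the opposite strand.

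Among the cytosolic enzymes CA13 had the largest rise of the family. CA13, CA3 and CA2 lie together on chromosome 8 of GRCh38 with CA1, in a cluster of 261 kb from 85220587 to 85481493. CA13 (ENSG00000185015.8, plus strand, 85220587 to 85284073, 7 exons) was at 11.9 and 10.9 CPM in control and at 8.83 and 9.75 CPM with SRPIN340. In acidosis it reached 20.1, 25.0 and 20.4 CPM. Every acidosis sample was above every other sample. From a control mean of 11.4 ± 0.716 CPM (SD, n = 2) it reached 21.8 ± 2.71 CPM (SD, n = 3). In edgeR this was 0.94 on the log2 scale (SE 0.154, adjusted p = 0.000419), just under the limit of a call. Its 95% interval ran from 0.59 to 1.28. Without control repeat 1 the value was over the limit and CA13 was called. Under total count scaling CA13 was at 0.37 and did not pass (adjusted p = 0.059 in edgeR). Of the 31-base words of its canonical transcript, 4.13% also occur in transcripts of other genes, with NIN in front at 0.83%, and 2 long noncoding RNA genes overlap it on the opposite strand.

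CA2 (ENSG00000104267.10, plus strand, 85463968 to 85481493, 7 exons) lies at the other end of the cluster and did not pass the test. Control samples were at 27.0 and 24.8 CPM and acidosis samples at 23.7, 26 and 25.9 CPM. The groups overlapped, and the log2 fold change was -0.04 with a 95% interval from -0.29 to 0.20 (adjusted p = 0.754 from edgeR). Under total count scaling CA2 passed as lower, with a log2 fold change of -0.62 (adjusted p = 0.000567 from edgeR). With SRPIN340 it was at 29.4 and 29.3 CPM, above both control samples and every acidosis sample, but neither difference passed (adjusted p = 0.479 against control and 0.0969 against acidosis, from edgeR). Under total count scaling CA2 passed as lower in acidosis than with SRPIN340 (-0.84, adjusted p = 6.75e-05 in edgeR).
CA3 (ENSG00000164879.7) lies between CA13 and CA2 and was barely present. Its counts were 2.81 and 6.40 in control, 2.82 and 9.49 with SRPIN340, and 0, 0 and 1.75 in acidosis. The acidosis libraries were all under 3 counts, a limit of 0.178 to 0.275 CPM, which is at or above the control mean of 0.163 CPM. No difference was detectable at this depth. CA3-AS1 overlaps both CA3 and CA2 on the opposite strand, and whether the counting used strand is not given in the sources used here.

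Because the scaling enters each of these values, ratios of counts within a library were also taken, which no scaling can move. The ratio of CA13 to CA12 counts was 0.896 and 0.680 in control and 0.548 and 0.758 with SRPIN340. In acidosis it was 2.25, 3.03 and 2.30. The ratio of CA13 to its cluster neighbour CA2 was 0.440 and 0.438 in control, 0.3 and 0.333 with SRPIN340, and 0.848, 0.960 and 0.789 in acidosis. In both ratios all acidosis samples stood above all others, so CA13 changed unequally to CA12 and to CA2. These pairs were picked after their values were seen, and the ratios are descriptions with no test.

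CA5B (ENSG00000169239.13, plus strand of chromosome X, 15688830 to 15788411), the mitochondrial enzyme, rose in acidosis under TMM scaling. Control samples held 36.5 and 33.4 CPM and SRPIN340 samples 30.2 and 36.4 CPM. The acidosis samples held 47.9, 54.2 and 52.8 CPM, above all others. Their mean of 51.6 ± 3.32 CPM (SD, n = 3) compares with 34.9 ± 2.20 CPM (SD, n = 2) for control. In edgeR the rise was 0.56 on the log2 scale (SE 0.116, adjusted p = 0.00177), while scaling by total count only gave -0.01. The CA5B to CA2 ratio of counts, free of scaling, was 1.35 and 1.34 in control, 1.03 and 1.24 with SRPIN340, and 2.02, 2.08 and 2.04 in acidosis. CA5B overlaps its pseudogene CA5BP1 on the same strand. Of all its 31-base words, 12% occur in transcripts of other genes and 3.26% occur in CA5BP1, so part of its count is uncertain.

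The related proteins without catalysis differed in how firmly they could be read. CA8 (ENSG00000178538.10, minus strand of chromosome 8, 60185412 to 60281400) binds an inositol trisphosphate receptor in the cerebellum. It was at 25.2 and 23.8 CPM in control, 32.4 and 28.0 CPM with SRPIN340, and 34.1, 26.9 and 31.3 CPM in acidosis. Control samples were the lowest, and those of the other groups overlapped. In acidosis CA8 passed narrowly at 0.33 on the log2 scale (SE 0.131, adjusted p = 0.0463 in edgeR). This pass was kept in only 4 of 14 alternatives. It was lost on leaving out either control sample (adjusted p = 0.106 and 0.22 from edgeR), and under total count scaling CA8 did not pass and its direction turned (-0.24).
CA11 (ENSG00000063180.9, minus strand of chromosome 19, 48637946 to 48646187), a secreted relative found mainly in brain, was at 10.8 and 12.2 CPM in control and at 14.7 and 15.2 CPM with SRPIN340. Its acidosis samples spread from 10.2 to 21.6 CPM, with repeat 3 at 16.7 CPM. The lowest of them lay below control and the others above it. The log2 fold change was 0.50 with a 95% interval from -0.07 to 1.07 (adjusted p = 0.108 from edgeR). Without acidosis repeat 2 it was 0.74 and passed (adjusted p = 0.00314 from edgeR), and with total count scaling it was -0.08. CA11 overlaps the pseudogene SEC1P on the opposite strand.

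**Figure D2:**
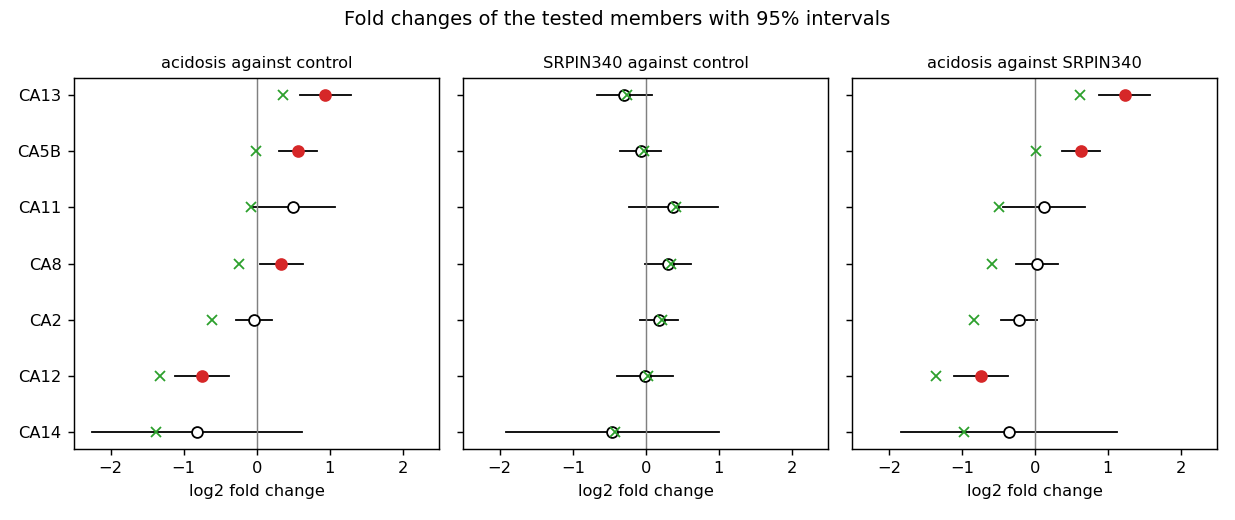
Log2 fold changes of the 7 tested members in the 3 comparisons, from edgeR with TMM scaling. Circles are estimates (red, adjusted p under 0.05), lines are 95% intervals, and green crosses are the values with libraries scaled by total count only. In acidosis CA13 (0.94) and CA12 (-0.75) keep their direction under both scalings, and the crosses of CA5B, CA8 and CA11 lie at or below 0.

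With SRPIN340 against control, 0 of 7 members passed and 0 were called, with 0 at an unadjusted p under 0.05 and 0 passed in DESeq2. Over all genes 2.3% passed and 0.323% were called in either direction, and 2621 of 14863 had an unadjusted p under 0.05 in edgeR. The members' log2 fold changes lay between -0.46 (CA14) and 0.38 (CA11). The interval of CA12 was from -0.40 to 0.38, that of CA5B from -0.35 to 0.21, that of CA13 from -0.67 to 0.08 and that of CA8 from -0.01 to 0.62. The widest intervals were those of CA14 (-1.91 to 0.996) and CA11 (-0.23 to 0.99). With 2 samples a group, the data are compatible with changes of any size within these intervals.

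Acidosis was also set directly against SRPIN340. CA13 was called higher, by 1.23 on the log2 scale (SE 0.157, adjusted p = 7.3e-05 in edgeR), where 14.9% of all genes were called higher and 19.7% lower. Under total count scaling CA13 still passed as higher, but at 0.62 it was no longer called, and CA12 was called lower instead (-1.35). CA5B passed as higher (0.63, adjusted p = 0.000874 from edgeR), though not with total count scaling (0.02), and CA12 passed as lower (-0.73, adjusted p = 0.00289 from edgeR). Over all genes 32.8% passed as higher and 35% as lower. The other 4 tested members did not pass. CA8 differed by 0.03 on the log2 scale, with an interval from -0.26 to 0.32. This comparison shares the acidosis samples with the comparison against control.

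Levels of different genes were compared per kilobase of canonical transcript (GENCODE release 44), which assumes that this transcript is the one expressed. It also assumes that the estimated counts were not already scaled for length by tximport, an option not given in the sources used here, and the order of the genes could change if they were. In control CA2 led at 16.6 ± 0.982 CPM per kb (SD, n = 2). It was followed by CA11 (6.73 ± 0.572), CA5B (5.11 ± 0.321), CA8 (4.27 ± 0.176), CA13 (2.93 ± 0.184) and CA12 (2.40 ± 0.316), with no overlap between neighbours. CA14 was at 0.424 ± 0.267 CPM per kb, and CA3 and CA9 were below it. In acidosis CA2 still led at 16.1 ± 0.812 CPM per kb (SD, n = 3). CA11 (9.42 ± 3.31) and CA5B (7.55 ± 0.486) overlapped there, as did CA13 (5.62 ± 0.697) and CA8 (5.36 ± 0.627), while CA12 was at 1.42 ± 0.0644.
As a share of the summed level of all 15 family genes per kilobase, which no library scaling moves, CA2 held 40.9% to 43.5% in control and 31.8% to 38.3% in acidosis. CA13 went from between 7.19% and 7.69% to between 10.8% and 14.8%, and CA12 from between 5.47% and 6.74% to between 3.07% and 3.10%. CA5B held 12.6% to 13.4% in control and 14.7% to 18.2% in acidosis. With SRPIN340 the shares were 42.3% to 43.2% for CA2, 5.21% to 5.67% for CA13, 4.76% to 6.06% for CA12 and 10.1% to 12.0% for CA5B. Control and acidosis samples did not overlap in these 4 shares. They also did not overlap for CA4 and CA7, which held few counts, and overlapped for all other family genes. The shares are tied together, since a share falls when other genes rise.

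**Figure D3:**
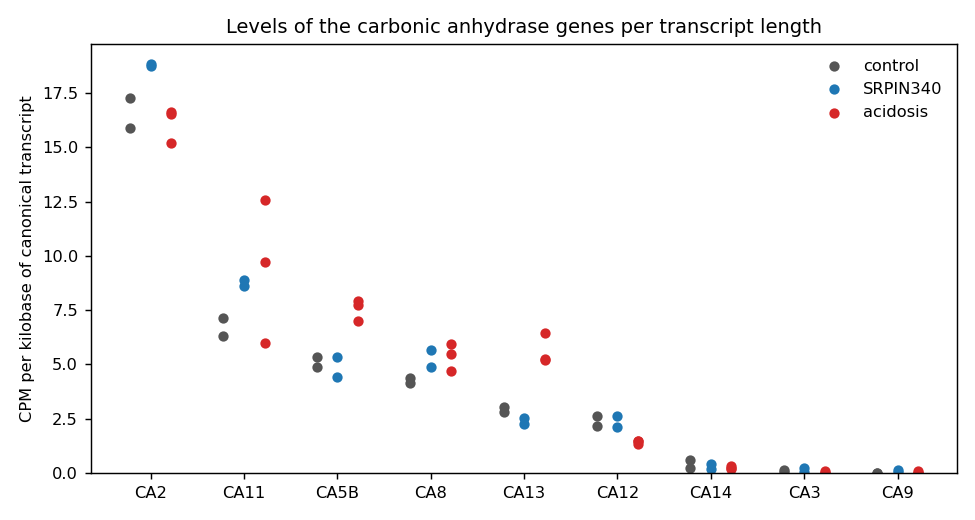
Level of each carbonic anhydrase gene in CPM per kilobase of canonical transcript (vertical axis from 0), with 1 point per sample in control, SRPIN340 and acidosis. CA2 is the highest in all 7 samples, CA12 drops to 1.42 on average in acidosis, and CA13 climbs there to the range of CA8.

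Of the other 6 family genes only CA7 passed the filter. CA7 (ENSG00000168748.14, chromosome 16, 66844414 to 66854153), a cytosolic enzyme of neurons, was at 0.619 and 0.902 CPM in control, at 1.13 and 1.06 CPM with SRPIN340, and at 0.118, 0 and 0.377 CPM in acidosis. These are 17.2 and 25.7 counts in control against 1.98, 0 and 4.39 in acidosis. It passed the filter through its counts at pH 7.4, and 2 of the 3 acidosis libraries were under 3 counts. Its fitted log2 fold change of -2.27 (SE 0.769, adjusted p = 0.0249 in edgeR) met the limits of a call, but its size depends on how such low counts are treated. Without control repeat 2 or acidosis repeat 1 it did not pass (adjusted p = 0.124 and 0.0717 from edgeR), nor with DESeq2 (adjusted p = 0.0501). CA7 overlaps NAE1 on the opposite strand. CA1, CA4, CA5A, CA6 and CA10 stayed at or below 0.353 CPM in every library.

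Bicarbonate made or used by these enzymes crosses membranes through exchangers and cotransporters of the SLC4 and SLC26 families, and lactate leaves with a proton through the SLC16 family. Of 27 such genes 22 were tested, and in acidosis 5 passed as higher and 6 as lower, with 2 called in each direction. Over all genes 32.5% passed as higher and 34.2% as lower, and 14.4% and 19.1% were called. The median log2 fold change of the list was -0.05, as over all genes. With total count scaling 0 of the list were called higher and 9 lower, beside 815 and 5202 of all 14863 tested genes. By size of change the called genes were led by SLC26A7, HVCN1 and SLC4A4. SLC4A4, a sodium bicarbonate cotransporter, went from 18.7 and 19.2 CPM in control to 4.71, 5.13 and 8.35 CPM in acidosis (log2 fold change -1.66, adjusted p = 8.32e-05 in edgeR). The proton channel gene HVCN1 went from 2.67 and 2.63 CPM to 0.479, 0.645 and 1.22 CPM (-1.80, adjusted p = 0.00264 from edgeR). SLC26A7, an anion exchanger, had 0.268 and 0.178 CPM in control (7.43 and 5.06 counts) and passed the filter through its counts in the other groups. With SRPIN340 it was at 1.02 and 0.880 CPM (log2 fold change 2.13 against control, adjusted p = 0.207 from edgeR). In acidosis it was at 0.345, 1.97 and 0.698 CPM, a log2 fold change of 0.05 against SRPIN340 and of 2.18 against control. The change against control (adjusted p = 0.0324 from edgeR) did not pass without acidosis repeat 2 (1.23, adjusted p = 0.133 from edgeR). Nor did it with total count scaling (1.61, adjusted p = 0.0911) or with the repeat number as a block (2.24, adjusted p = 0.0564), both from edgeR. Leaving out control repeat 1 or 2 gave 2.45 and 1.93, and leaving out either SRPIN340 sample gave 2.18. These fits left 1 sample in a group, so the values are sizes only and do not mean that the change passed. With SRPIN340, 1 gene of the list passed as higher and 1 as lower, where 2.3% of all genes passed in either direction.

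Other targets of hypoxia-inducible factors were counted beside CA9 and CA12. Of 29 tested genes 18 passed as higher in acidosis and 6 as lower, and 11 and 4 were called. Over all genes 32.5% passed as higher and 34.2% as lower, and 14.4% and 19.1% were called. The median log2 fold change of the list was 0.47, and it was -0.11 with total count scaling. Under that scaling 11 of the list passed as higher and 9 as lower, and 6 and 5 were called. Over all 14863 tested genes it called 815 higher and 5202 lower. The vasodilator peptide gene ADM went from 10.5 and 12.1 CPM in control to 70.9, 59.5 and 69.0 CPM in acidosis (log2 fold change 2.56, adjusted p = 2.11e-07 from edgeR). STC2, a secreted glycoprotein, and NDRG1, a stress-responsive gene, followed with log2 fold changes of 2.29 and 2.21. These 3 were higher under total count scaling as well (1.98, 1.71 and 1.64). The 4 targets called lower, named after their values were seen, were BNIP3 (-1.79), LOX (-1.70), EGLN3 (-1.61) and PFKFB4 (-1.55). The targets thus moved both ways, more often up than down under TMM scaling, in the samples in which CA12 was lower and CA9 undetected. Of the regulators, HIF1A was at -0.08 and did not pass in edgeR (adjusted p = 0.396), but passed as lower with total count scaling (-0.65). ARNT, its partner, passed as higher (0.65), though not with that scaling (0.08). VHL, which marks HIF proteins for degradation, passed as lower (-0.61). EPAS1 was at 0.32 (adjusted p = 0.0549 from edgeR), a pass with DESeq2 (adjusted p = 0.0348) and -0.25 with total count scaling. With SRPIN340 1 gene of this list passed as higher and 3 as lower, where 2.3% of all genes passed in either direction.

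**Figure D4:**
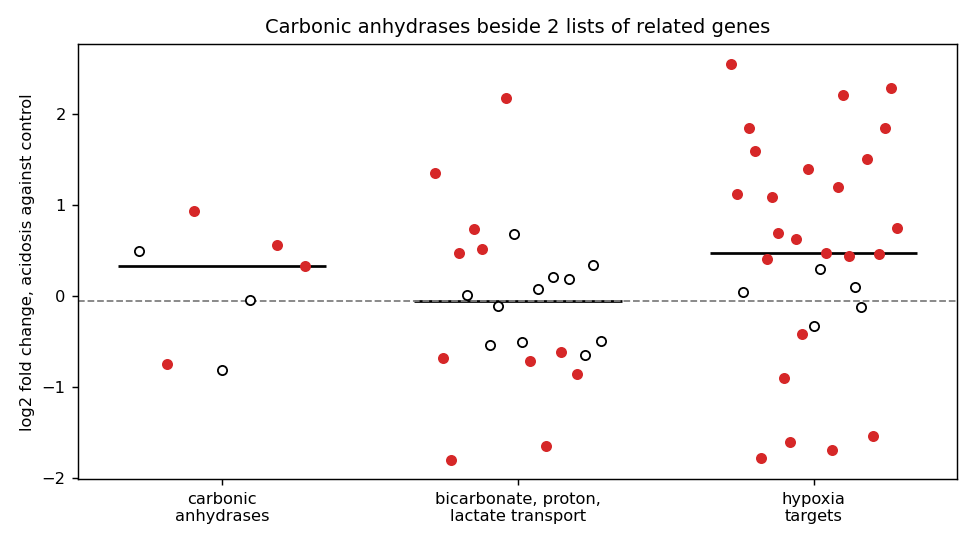
Log2 fold change in acidosis against control for the tested carbonic anhydrases (7), bicarbonate, proton and lactate transport genes (22) and hypoxia targets (29). Red points have an adjusted p under 0.05, black lines are list medians (0.33, -0.05 and 0.47) and the dashed line is the median of all tested genes (-0.05). The carbonic anhydrases lie between -0.82 and 0.94, inside the span of both other lists.

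The genes most like CA13 and CA12 across the 7 samples were found by the root mean square distance between log2 CPM profiles centred on the control mean, among 13454 other genes whose mean reached 1 CPM. CA13 and CA12 were taken for this after their values were seen, since no member was called against control. Closest to CA13 were SERBP1, an mRNA-binding protein gene (distance 0.0871), CBLL1, an E3 ubiquitin ligase gene (0.0899), and TMEM185B (0.0923). Closest to CA12 were ELMOD3 (0.0695), GEMIN4, part of the SMN complex (0.0726), and KATNAL2, related to the microtubule-severing katanin (0.0733). The profiles share libraries and scaling, and the distances are descriptions over 7 samples.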

How the data were processed

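The authors trimmed paired-end reads with Trimmomatic 0.39 and Trim Galore 0.6.6, quantified transcripts with Salmon 1.5.1 against a Gencode GRCh38.p13 transcriptome and aggregated them with tximport, whose option is not given in the sources used here. They deposited 1 table of estimated counts by gene and sample, not normalized between samples. Of 19978 identifiers 19977 matched a symbol.

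After rounding, all 7 samples entered 1 quasi-likelihood fit of edgeR 4.0.16 (R 4.3.3) with TMM factors and filterByExpr. The standard error (SE) was derived from the test statistic. CPM use TMM-scaled totals of the unrounded counts. The test was checked on simulated counts in which few genes changed. That check does not cover the choice between TMM and total count scaling. DESeq2 1.42.0, other scalings, filters and sample choices were alternatives. Profile distances used a pseudocount of 0.5 CPM. Overlaps, transcript lengths and 31-base words come from GENCODE release 44 on GRCh38, and promoters from RefSeq (GRCh38.p14).

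Members, gene lists and tests were chosen with earlier results of these data known. Named were all members, the detected relatives, and the 3 called genes with the largest change in each list. The rule for similar profiles required a called member, of which there was none against control, so it was applied to CA13 and CA12. The methods call the samples biological repeats, each sequenced in 3 replicates, while the deposited table has a single column per repeat. How the replicates were combined is not given in the sources used here. The p-values set a difference against the spread between samples, which the fit estimated over all groups.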

Additional observations from a re-analysis of the deposited data

How the results depend on the processing

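Of the 4 members that passed in acidosis against control, CA12 and CA5B kept direction and pass when any library was left out (log2 fold changes from -0.88 to -0.63 and from 0.48 to 0.62), as did CA13 (0.84 to 1.00). The count of called members against control was 0 and became 1 with total count scaling (CA12, lower), 0 to 1 when libraries were left out (CA13, without control repeat 1) and 4 without the fold limit. Against SRPIN340 the count went from 1 to 3 without the fold limit. It was also 1 with total count scaling, but there CA13 (0.617) lost its call and CA12 (-1.35, lower) gained one. For the transport list, 4 calls became 9 with total count scaling, 2 among genes of at least 6 CPM and 11 without the fold limit, and for hypoxia targets 15 (11 higher and 4 lower) became 24 without the fold limit and 6 higher and 5 lower with total count scaling. Directions turned with total count scaling for CA11 (-0.076), CA5B (-0.012) and CA8 (-0.24) in acidosis against control, CA12 with SRPIN340 (0.027), and CA11 (-0.49) and CA8 (-0.58) against SRPIN340. That scaling moved the median of all genes to -0.63. Leaving out a library turned values near 0, and also those of the scarce CA14 with SRPIN340 (-0.46) and in acidosis against SRPIN340 (-0.36). In acidosis against control CA2 ranged from -0.12 to 0.015, with 0.0036 without acidosis repeat 1. With SRPIN340 the ranges were -0.18 to 0.14 for CA12 (0.13 without control repeat 2), -1.16 to 0.37 for CA14 (0.02 without SRPIN340 repeat 1) and -0.209 to 0.062 for CA5B. Against SRPIN340 they were -0.15 to 0.36 for CA11, -0.84 to 0.34 for CA14 and -0.077 to 0.133 for CA8 (-0.05 without acidosis repeat 1). The cause of these turns was not tested.

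With a replicate block, 0 members were called against control and 1 against SRPIN340 (CA13, log2 fold change 1.27), as without it. The block ended the pass of CA8 (adjusted p = 0.0787 from edgeR) and took the calls in the transport list from 4 to 3, without SLC26A7 (adjusted p = 0.0564 from edgeR). Deviations from the group means correlated between -0.146 and 0.0715 over 6 same-numbered pairs. In a group of 2 samples the deviations mirror each other, so these correlations are not independent. They cannot decide whether the repeat numbers pair the samples. Depth limits CA9, CA3, CA14 and CA7, which held under 31 counts in every library.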
